A study of Mus musculus with 6 samples.

Results

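The 48 genes described here encode the machinery that builds ribosomes in the nucleolus, and were followed in whole uteri of mice with and without epithelial Sox17 at gestation day (GD) 3.5, the window in which the uterus becomes receptive to the embryo. They were taken as a fixed list of gene symbols, matched to the probes of an Agilent mouse expression array through RefSeq accessions. All 48 were on the array, out of 20141 genes that could be named, and 47 of them were among the 14843 genes bright enough to be tested. RNA came from 3 Sox17f/f females, which carry the floxed allele without Cre and served as controls, and from 3 Sox17ed/ed females, which carry the same floxed alleles with 1 copy of Ltf-iCre. This Cre acts in the uterine epithelium and begins at puberty, so the floxed gene is left intact in stroma, muscle and vessels of the mutant. Females were mated at 8 to 10 weeks of age to fertile males, the pregnancy was natural, and uteri were harvested without embryos, 1 mouse to an array. Since the tissue was the whole organ, fewer cells of a type and less RNA per cell cannot be told apart.

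Ribosome production begins when RNA polymerase I transcribes a long precursor from the ribosomal RNA genes. Small nucleolar ribonucleoproteins (snoRNPs) of the box C/D and box H/ACA classes then guide its methylation and pseudouridylation, the small subunit processome cuts out and folds the small subunit RNA, and a separate set of helicases, GTPases and methyltransferases assembles the large subunit. Cells that grow or are about to divide raise this programme, to which the transcription factor MYC contributes, and the uterine epithelium passes through a wave of growth and division early in pregnancy before it stops dividing ahead of implantation.

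Sox17, the deleted gene, had log2 normalized intensities of 12.21, 12.07 and 12.22 in the Sox17f/f uteri and 9.75, 9.59 and 9.81 in the Sox17ed/ed uteri, a fall of 5.47-fold (log2 fold change -2.45 ± 0.09 SE, n = 3 and 3, limma adjusted p = 2.66e-05). Between 56.8% and 65.7% of the spots on an array were well above background, with the highest share and the highest median signal on Sox17f/f replicate 3, and no spot was saturated. All arrays lay on 1 slide, and each genotype filled a line of it, so the position on the slide and the genotype cannot be told apart.

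Few ribosome biogenesis genes differed between the genotypes by the test. Only Noc4l, a factor of the small subunit processome, fell in Sox17ed/ed uteri at an adjusted p under 0.05, and no member rose. One lower gene of 47 is 2.13%, where 10.1% of all genes tested were lower, and 0 higher genes stand beside 8.8% of all genes tested. At an unadjusted p under 0.05, 8 of 47 members were lower and 0 higher, where 17.5% and 16.3% of all genes were, so the share of lower members was near the background. At the thresholds of the study's methods (unadjusted p under 0.01 and a fold change of at least 1.4), 1 member was lower and 0 were higher, beside 6.47% and 6.04% of all genes. The 3 arrays of one genotype all lay below the 3 of the other, with the mutant lower, for 10 members (21.3%), close to the 21% of all genes, and with the mutant higher for 1 member (2.13%) against 19.6% of all genes.

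The values of the members leaned one way. The log2 fold change was below 0 for 39 of 47 members (83.0%) and for 50.2% of all genes tested, and its median was -0.14 against -0.00 over all genes. Single members ran from -0.50 for Noc4l to 0.13 for Npm1. Members vary together across arrays, as described below, so their signs are not separate observations. For 31 of the 47 members (66.0%) the 95% interval of the fold change lay within 1.4-fold in both directions, and this held for 56.9% of all genes, while for the other 16 members it reached beyond 1.4-fold, so that 6 arrays leave such a change possible.

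**Figure D1:**
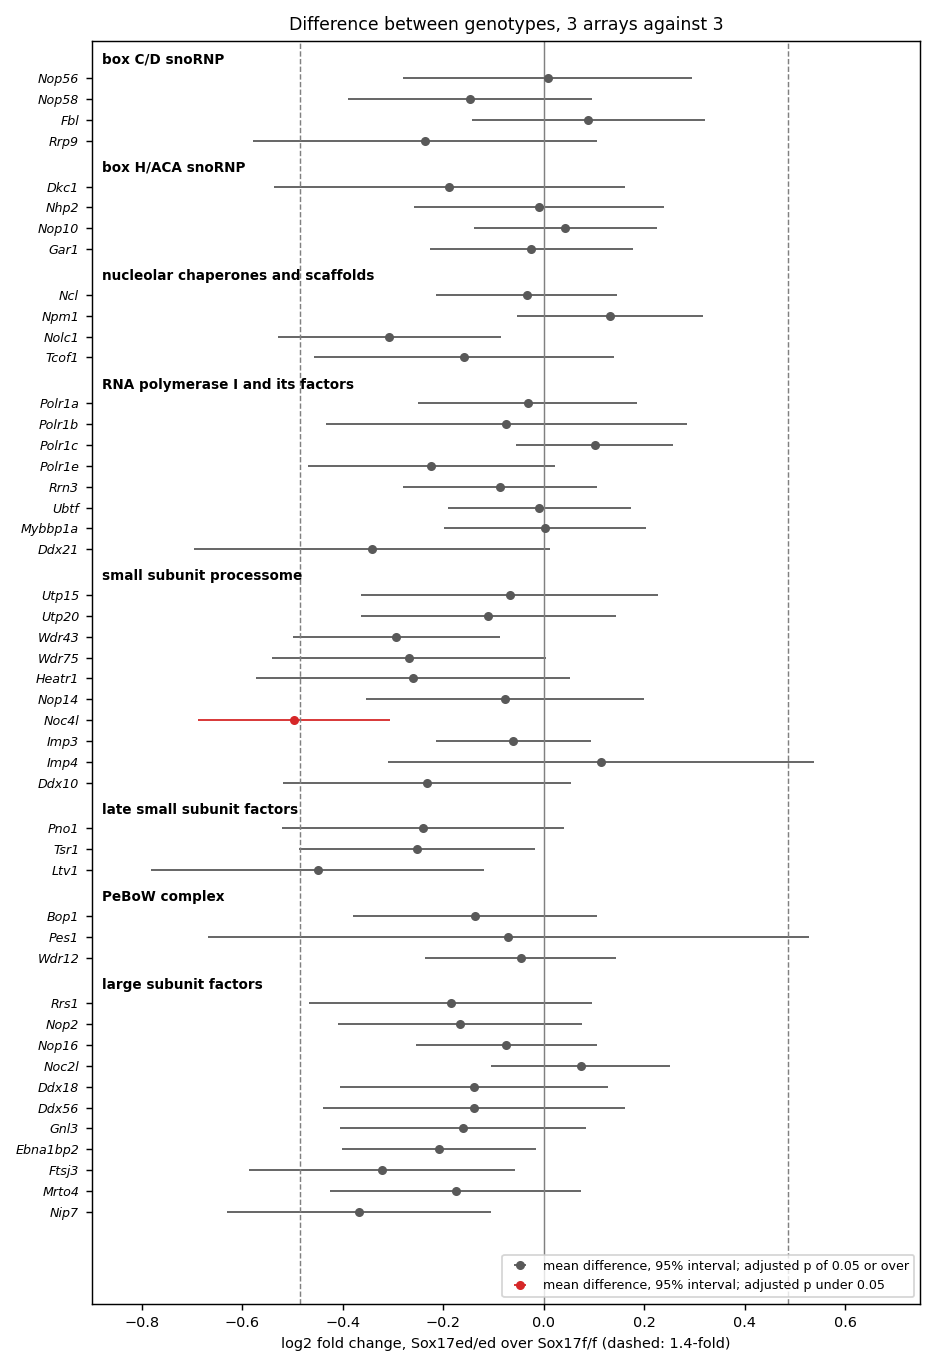
Log2 fold change of Sox17ed/ed over Sox17f/f uteri for the 47 members tested, grouped by role, with 95% intervals from limma (3 arrays against 3); dashed lines mark 1.4-fold. Noc4l (-0.50, red) is the member with an adjusted p under 0.05, and most other points lie left of 0 with intervals that reach it.

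Noc4l, which pairs with Nop14 in early small subunit assembly, had intensities of 10.98, 11.16 and 11.00 in Sox17f/f and 10.53, 10.49 and 10.63 in Sox17ed/ed uteri. The groups did not overlap, and the gap between them was wider than the spread within either. It fell by 0.50 on the log2 scale (± 0.08 SE, 1.41-fold, limma adjusted p = 0.00813), and an exact two-sided permutation test gave p = 0.1, the smallest that 3 arrays against 3 allow. Its partner Nop14 had a log2 fold change of -0.08 ± 0.11 (adjusted p = 0.682) with overlapping groups; the difference between the pair was not tested.

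Noc4l lies beside another gene of the pathway. In RefSeq (GRCm38.p6) it starts head to head with Ddx51, which encodes a helicase of large subunit maturation, and 49 bases lie between the outermost annotated ends of the genes. The transcript starts used for the promoter windows are 68 bases apart. The 49 bases are shown because both of these genes fell, and lie at chr5:110653383-110653431, read on the minus strand towards Noc4l.
Noc4l-Ddx51: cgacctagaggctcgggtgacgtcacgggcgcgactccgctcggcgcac
The stretch is 73.5% G and C. Ddx51, which is no member, had intensities of 11.03, 11.12 and 10.93 in Sox17f/f and 10.58, 10.54 and 10.73 in Sox17ed/ed uteri, and fell by 0.41 (± 0.08 SE, adjusted p = 0.0213), a call kept in 8 of 14 alternatives and lost with normexp, with the replicate block and without Sox17f/f replicate 1 or 2 or Sox17ed/ed replicate 1 or 2. The pair was looked up after the values of both genes had been seen. Of the 43 members with a RefSeq start, 18 have a gene that starts on the other strand within 1000 bases, pointing away, and 15 of these 18 partners were tested. Of the 15, 3 fell, none rose (1 at an unadjusted p under 0.05), and 12 were below 0 with a median of -0.09. Over all genes tested, 10.1% fell, 8.8% rose (16.3% at an unadjusted p under 0.05) and 50.2% were below 0. The 3 include Ddx51, whose value had been seen before the search, and 15 partners are few. Apart from Ddx51, the partners that fell were Wdr92 beside Pno1 (-0.93, adjusted p = 0.00853) and Parp3 beside Rrp9 (-0.85, adjusted p = 0.00147), while Pno1 and Rrp9 themselves were at -0.24 and -0.24 and did not pass the test.

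The E-box CACGTG, the sequence that MYC and its relatives recognize, was found in the 300 bases around the start (250 before to 50 after, RefSeq, GRCm38.p6) of 11 of 43 members (25.6%), and in 8.09% of all 27025 genes with such a window or 11.1% of the tested ones. It reads the same on both strands. The 5 stretches of 30 bases below are shown because they hold this element in members of 4 roles, Imp4 and Wdr43 sharing the small subunit processome, with the motif in capitals. They lie at chr1:34439696-34439725 (Imp4), chr6:125131811-125131840 (Nop2), chr16:13780639-13780668 (Rrn3), chr17:71616220-71616249 (Wdr43), all on the plus strand, and chr10:13193092-13193121 (Ltv1, minus strand), and were picked after the values had been seen.
Imp4: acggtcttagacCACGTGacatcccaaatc
Nop2: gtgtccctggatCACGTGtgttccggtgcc
Rrn3: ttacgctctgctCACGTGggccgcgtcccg
Wdr43: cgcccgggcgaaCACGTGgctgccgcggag
Ltv1: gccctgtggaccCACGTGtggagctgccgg
The other members with a CACGTG were Mybbp1a, Pes1, Pno1, Tsr1, Utp18 and Utp20, and Noc4l had none. The log2 fold changes of the 10 tested members with the motif ran from -0.45 for Ltv1 to 0.11 for Imp4, and none passed the test. The core bound by SOX proteins, ATTGT or ACAAT on the other strand, was in 16.3% of the members against 34.4% of all genes and 25.0% of the tested ones, and CGCGAGA or TCTCGCG, an element of many housekeeping starts, in 16.3% against 2.92% and 5.26%. None of these motifs overlaps another in its letters, and a match is a description of the sequence, not of binding.

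Among the genes of RNA polymerase I, no member of 8 passed the test. At an unadjusted p under 0.05 it was 0, where 17.5% of all genes were lower and 16.3% higher. Polr1a, the largest subunit, had a log2 fold change of -0.03 ± 0.09, Polr1b, the next largest, of -0.07 ± 0.15, and Ubtf, the architectural factor of the ribosomal RNA genes, of -0.01 ± 0.08. Rrn3, which recruits the polymerase to its promoter, was at -0.09 ± 0.08 and Mybbp1a, a nucleolar MYB-binding protein, at 0.00 ± 0.08. For all of these the interval stayed within 1.4-fold. Polr1e, a subunit that promotes assembly and elongation, read 9.60, 9.81 and 9.50 in Sox17f/f and 9.49, 9.32 and 9.43 in Sox17ed/ed uteri, so that the groups lay just apart (-0.22 ± 0.10, adjusted p = 0.181). A second probe of Polr1e, of similar brightness, gave -0.07. Polr1c, which RNA polymerase III shares, was the single member whose mutant arrays all lay higher, at 12.57, 12.57 and 12.58 against 12.43, 12.43 and 12.55. The group means differed by 0.10 ± 0.06 (adjusted p = 0.326), and the nearest arrays of the groups by 0.02. Ddx21, a helicase that works with the polymerase and on snoRNAs, read 10.14, 10.34 and 9.88 in Sox17f/f and 9.61, 9.76 and 9.97 in Sox17ed/ed uteri (-0.34 ± 0.15, adjusted p = 0.159), with overlapping groups.

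None of the 8 snoRNP proteins passed the test. At an unadjusted p under 0.05 it was 0, where 17.5% of all genes were lower and 16.3% higher. In the box C/D class, Nop56 and Nop58, the paired scaffold proteins, were at 0.01 ± 0.12 and -0.15 ± 0.10, the methyltransferase Fbl at 0.09 ± 0.10 and Rrp9, which binds the snoRNA of early cleavage, at -0.24 ± 0.14. A dimmer probe of Nop56 gave -0.16. In the box H/ACA class, the pseudouridine synthase Dkc1 was at -0.19 ± 0.14 and its partners Nhp2, Nop10 and Gar1 at -0.01 ± 0.10, 0.04 ± 0.08 and -0.02 ± 0.08. For all 8 the genotypes overlapped, where 21% of all genes lay apart with the mutant lower and 19.6% with it higher. The medians were -0.07 for box C/D and -0.02 for box H/ACA.

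Of the nucleolar chaperones and scaffolds, Nolc1, which escorts snoRNPs to the nucleolus, came closest to the threshold. It read 11.68, 11.82 and 11.56 in Sox17f/f and 11.37, 11.30 and 11.47 in Sox17ed/ed uteri, apart by 0.09 between the nearest arrays of the groups (-0.31 ± 0.09, adjusted p = 0.0661). Ncl and Npm1, the abundant proteins nucleolin and nucleophosmin, were at -0.03 ± 0.07 and 0.13 ± 0.08, and 4 probes of Npm1 ran from 0.01 to 0.14. A far dimmer probe of Ncl gave -0.27. Tcof1, which links transcription to processing, was at -0.16 ± 0.12 with overlapping groups.

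The small subunit processome held Noc4l and Wdr43, the members with the lowest adjusted p. Utp15, Wdr43, Wdr75 and Heatr1 belong to the subcomplex that binds the nascent precursor first. Wdr43 read 10.63, 10.66 and 10.61 in Sox17f/f and 10.44, 10.18 and 10.39 in Sox17ed/ed uteri, with no overlap (-0.29 ± 0.09, adjusted p = 0.062), and a second probe of it gave -0.30. Wdr75 was likewise apart, at 11.09, 11.29 and 10.96 against 10.90, 10.70 and 10.94 (-0.27 ± 0.11, adjusted p = 0.154). Its nearest arrays of the groups differed by 0.02, far less than the spread within either genotype. Heatr1 overlapped at -0.26 ± 0.13 (adjusted p = 0.216), and Utp15, near the low end of the tested intensities, at -0.07 ± 0.12.

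The rest of the processome stayed closer to 0 or varied more. Imp3, a binding partner of the guide snoRNA, was at -0.06 ± 0.06 with the narrowest interval of the class, and Imp4, its companion, at 0.11 ± 0.17, with Sox17f/f replicate 1 at 10.21 and the other controls at 9.64 and 9.62. The helicase Ddx10 was at -0.23 ± 0.12 and the scaffold Utp20 at -0.11 ± 0.10. Utp18 could not be tested. None of the 6 arrays measured its probe well above background, with a processed signal of 3.15, 3.17 and 3.87 in Sox17f/f and 4.22, 4.42 and 3.59 in Sox17ed/ed uteri.

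The late small subunit factors Pno1, Tsr1 and Ltv1, which stay with the pre-ribosome into the cytoplasm, had the lowest median of the roles, -0.25, over 3 genes. Ltv1, an export and head-assembly factor, read 11.56, 11.66 and 11.32 in Sox17f/f and 10.96, 10.93 and 11.30 in Sox17ed/ed uteri. The mutant arrays were lower, but 1 of them came within 0.02 of a control (-0.45 ± 0.14, adjusted p = 0.0703). Tsr1, a GTPase-like factor, was apart at -0.25 ± 0.10 (adjusted p = 0.126), with a second probe at -0.31, and Pno1, an RNA-binding factor of the final cleavage, overlapped at -0.24 ± 0.12 (adjusted p = 0.203).

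For the large subunit no member passed the test, and 3 of 14 were lower at an unadjusted p under 0.05, where 17.5% of all genes were. In the PeBoW complex, which acts on the precursor of the large subunit RNA, Bop1, Pes1 and Wdr12 were at -0.14 ± 0.10, -0.07 ± 0.25 and -0.05 ± 0.08. Pes1 had the widest spread of all members, with controls at 10.69, 10.99 and 10.10, and its interval, from -0.67 to 0.53, allows no statement on a change of 1.4-fold. Nip7, which acts in precursor cleavage, read 12.60, 12.86 and 12.52 in Sox17f/f and 12.22, 12.26 and 12.40 in Sox17ed/ed uteri, all mutant arrays below all controls (-0.37 ± 0.11, adjusted p = 0.0645), and its dimmer probe gave -0.21.

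Ftsj3, an rRNA methyltransferase, and Ebna1bp2, an assembly factor, also lay apart, at -0.32 ± 0.11 (adjusted p = 0.0936) and -0.21 ± 0.08 (adjusted p = 0.123). The 3 probes of Ebna1bp2 disagreed, at -0.21, -0.12 and 0.17, the brightest of them being the one used. The remaining factors of the class overlapped between the genotypes: the assembly factors Rrs1 (-0.19), Nop16 (-0.07) and Mrto4 (-0.18), the methyltransferase Nop2 (-0.17), the helicases Ddx18 (-0.14) and Ddx56 (-0.14), and the GTPase Gnl3, also called nucleostemin (-0.16). Noc2l, which doubles as a histone acetylation inhibitor, was the single large subunit factor above 0, at 0.07 ± 0.07.

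**Figure D2:**
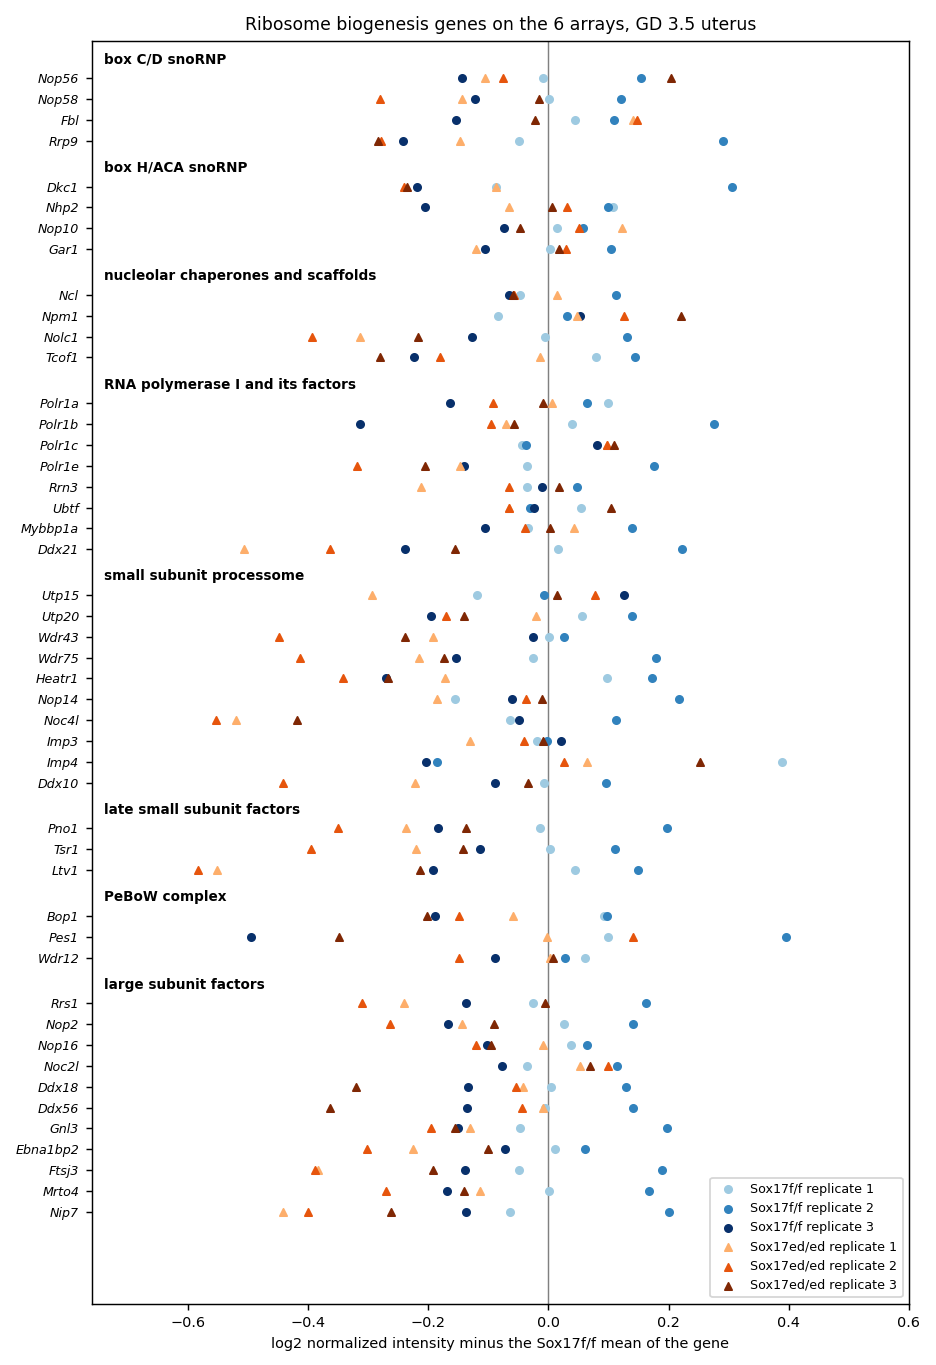
Log2 normalized intensity of each member on the 6 arrays, minus the gene's Sox17f/f mean (circles Sox17f/f, triangles Sox17ed/ed, 1 shade for each replicate). For most genes Sox17f/f replicate 2 is the rightmost circle and Sox17f/f replicate 3 the leftmost, and for Noc4l the 3 triangles lie clear of the circles.

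The members also differed between the control uteri. As a median over the members, Sox17f/f replicate 2 exceeded replicate 3 by 0.26 on the log2 scale, where the genotypes differed by a median of -0.14. The first value compares single arrays, the extremes of the controls, and the second compares means of 3 arrays, so their sizes cannot be ranked. Sox17f/f replicate 2 had the highest value of the 3 controls for 38 of 47 members (80.9%), against 33.3% of all genes, and replicate 3 the lowest for 39 members (83.0%), against 35.8%. The full order replicate 2, replicate 1, replicate 3 held for 35 members (74.5%) and for 20.3% of all genes. As medians over the members, the 3 controls deviated from their own mean by 0.00, 0.13 and -0.14 on the log2 scale, where the medians over all genes stayed within 0.01 of 0. All 11 large subunit factors outside PeBoW and all 4 box C/D proteins followed the order.

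Among the mutants the members were less orderly. Sox17ed/ed replicate 3 was highest for 24 members and replicate 1 for 17, replicate 2 was lowest for 25, and the median deviations were 0.01, -0.05 and 0.05. The median SD of a member was 0.14 among the controls and 0.09 among the mutants, against 0.11 and 0.11 over all genes. The order of the controls held under each scaling tried. With a shift by the 75th percentile, normexp background correction or the deposited processed values in place of quantile normalization, replicate 2 was highest for 38 to 40 members and replicate 3 lowest for 39 to 41. Without Sox17f/f replicate 2 the median log2 fold change of the members was -0.07, with 32 below 0, and without Sox17f/f replicate 3 it was -0.23, with 41 below 0 and 4 called (Heatr1, Ltv1, Noc4l and Nolc1).

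**Figure D3:**
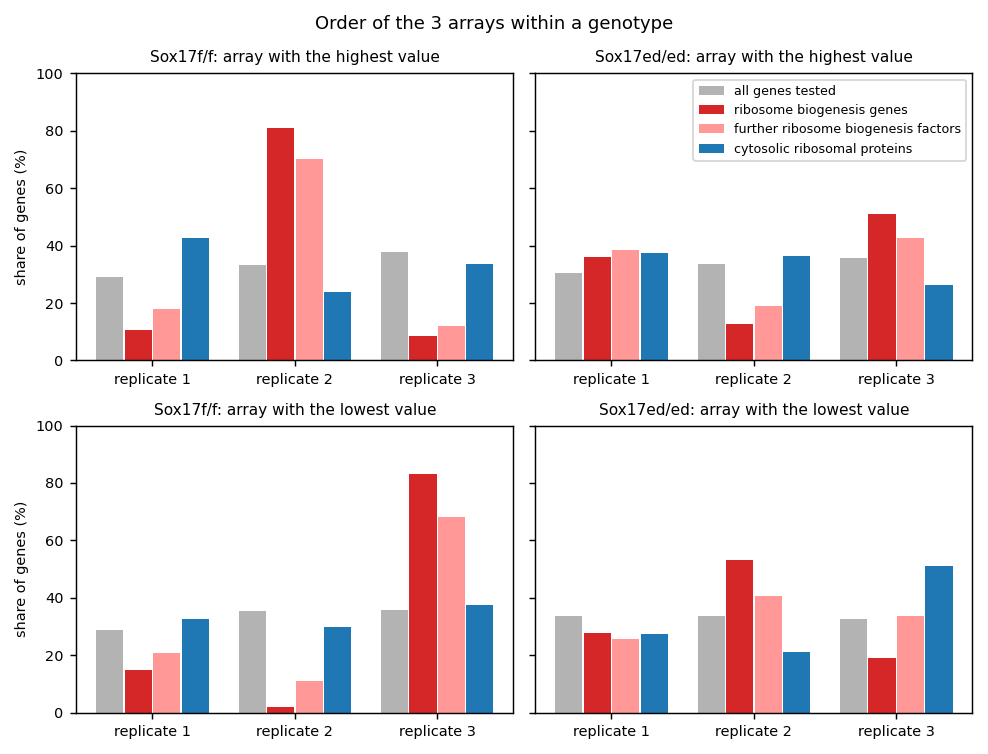
Share of genes (%) whose highest value (top) or lowest value (bottom) within a genotype was on each of its 3 arrays, for all genes tested, the 47 members, 102 further ribosome biogenesis factors and 81 cytosolic ribosomal proteins. Among Sox17f/f arrays the members peak on replicate 2 (80.9%) and are lowest on replicate 3 (83.0%), a pattern that the cytosolic ribosomal proteins do not have.

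Other lists moved along the same control arrays to differing degrees, and their part in the members' order was not tested. A list of 102 further ribosome biogenesis factors was highest on Sox17f/f replicate 2 for 71 genes and lowest on replicate 3 for 69, and of 20 genes of nucleotide synthesis 14 and 15 were. Cytosolic ribosomal proteins did not follow, with 19 of 81 highest on replicate 2 and 30 lowest on replicate 3, and median deviations of 0.00, 0.00 and -0.00. Cell cycle genes ran the other way, with medians of 0.01, -0.09 and 0.12 over the controls, and the uterine epithelial markers deviated by -0.01, 0.09 and -0.06.

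The rest of the pathway, from lists written down with earlier results of these data known, is given by its counts. Of the 102 further ribosome biogenesis factors tested, 11 fell (10.8%, against 10.1% of all genes) and 0 rose, 30 were lower (29.4%, against 17.5%) and 0 higher at an unadjusted p under 0.05, 81 were below 0, and the median was -0.13. The lowest were Las1l, an endonuclease subunit of large subunit RNA processing, at 11.51, 11.73 and 11.06 in Sox17f/f and 10.26, 10.24 and 10.27 in Sox17ed/ed uteri (-1.18, adjusted p = 0.00537), and Znhit6, a box C/D assembly factor, at 12.94, 12.77 and 12.75 against 11.71, 11.90 and 11.93 (-0.97, adjusted p = 0.00101). Both lay further from the controls than any member did. Utp4, which sits in the same subcomplex as Wdr43 and Heatr1, fell by 0.36 (adjusted p = 0.0351), a call kept in 7 of the 14 alternative settings. Of 10 further RNA polymerase I genes, Taf1d, a promoter factor, fell (-0.28, adjusted p = 0.0296), a call lost in 5 of the 6 fits that leave out an array.

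The ribosomal proteins, the products with which the members' RNA is assembled, did not differ by the test. None of 81 cytosolic ribosomal protein genes and none of 78 mitochondrial ones passed it, with medians of 0.00 and 0.02. At an unadjusted p under 0.05, 1 cytosolic gene was higher and 0 lower, and 6 mitochondrial genes were higher and 2 lower. Over all genes, 16.3% were higher and 17.5% lower at that threshold. Single cytosolic genes ran from -0.21 to 1.01, and mitochondrial ones from -0.25 to 0.27. The interval stayed within 1.4-fold for 78 genes of each list. Of 22 genes of RNA polymerase III and its factors, 3 were lower (13.6%, against 10.1% of all genes), among them Polr3d (-0.49) and Brf1 (-0.37). The 1 higher gene was Gtf3a (0.28, kept in 4 of 14 alternatives), which is 4.55%, against 8.8% of all genes. In the RNA exosome Exosc8 rose (0.23), a call kept in 3 of 14 alternatives and in none that leaves out an array, and of 46 translation factors Eif1a fell (-0.39). In nucleotide synthesis Ctps, the cytidine triphosphate synthase, fell by 0.73 (adjusted p = 0.00481) and Adssl1 rose (0.21, kept in 3 of 14 alternatives).

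Among the regulators of the programme, Mycn rose in Sox17ed/ed uteri. It read 5.94, 6.63 and 5.54 in Sox17f/f and 7.91, 7.45 and 8.19 in Sox17ed/ed uteri (1.81 ± 0.31, adjusted p = 0.0111), a call kept in 13 of 14 alternatives. The Sox17f/f values of Mycn lie near the low end of the tested intensities, where log2 values are uncertain, so the size of the rise is uncertain too. Myc itself read 10.97, 11.24 and 11.05 against 11.24, 11.38 and 11.36, a difference of means of 0.24 ± 0.09 that did not pass (adjusted p = 0.122). Of 20 p53 target genes 3 rose (15%, against 8.8% of all genes), led by Perp (0.92) and Trp53inp1 (0.69). In the same list 6 fell (30%, against 10.1%), led by Gadd45a (-2.24) and Plk2 (-1.25). Of 23 cell cycle genes 6 rose (26.1%, against 8.8% of all genes) and none fell (0 at an unadjusted p under 0.05). All 23 were above 0, and the median was 0.41. Rrm2 was at 0.53, a call kept in 7 of 14 alternatives, and Ccnd1 at 0.41, kept in 13. The calls of Mcm5, Mcm6, Mcm7 and Ccne1 were kept in 5 to 7. Mki67, the proliferation marker, was at 0.60 ± 0.18 (adjusted p = 0.0694). The members' median, -0.14, had the opposite sign from that of the cell cycle list.

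**Figure D4:**
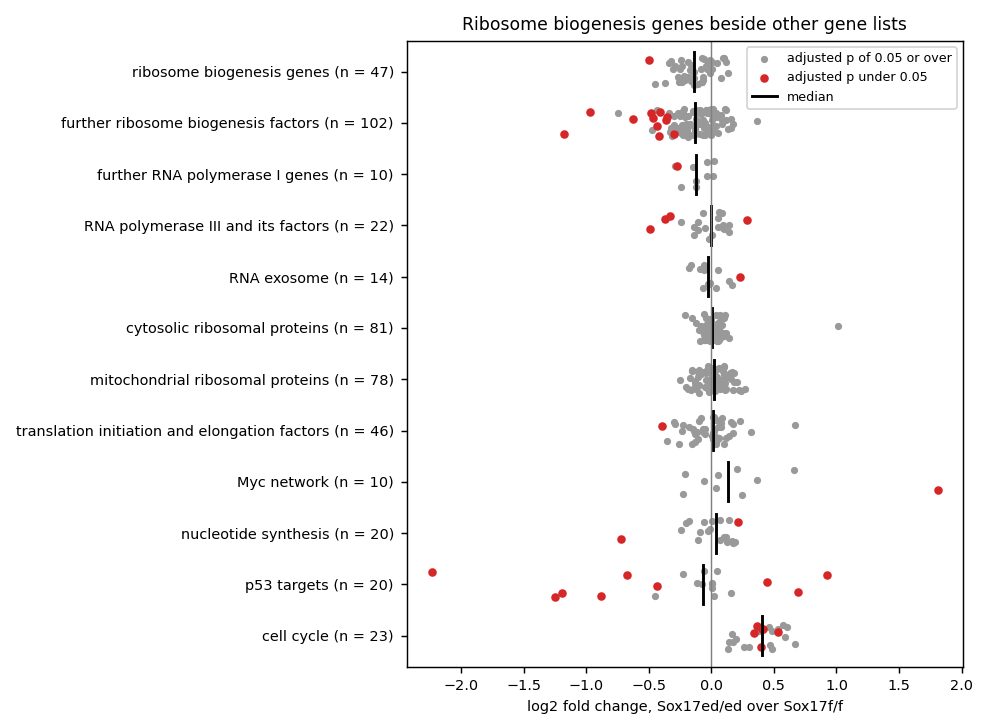
Log2 fold change of Sox17ed/ed over Sox17f/f uteri for every tested gene of each list (points, red where the adjusted p is under 0.05) with the list's median (black line). The 47 members and the 102 further factors centre at -0.14 and -0.13, the ribosomal proteins at 0.00 and 0.02, and the cell cycle genes at 0.41.

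Markers of the cells in the organ moved with genotype as well, and their part in the members' values was not tested. Beside the counts below, 8.8% of all genes rose and 10.1% fell, and 16.3% and 17.5% did at an unadjusted p under 0.05. Of 15 uterine epithelial markers 6 rose (among them Krt19 by 2.10) and 3 fell (Cldn3 at -1.16), and the mean log2 level over the list was 10.09 to 10.34 in Sox17f/f and 10.52 to 10.81 in Sox17ed/ed uteri. Of 8 endothelial markers 5 fell and 1 rose, with list means of 10.52 to 10.61 against 10.30 to 10.35. Of 8 smooth muscle markers 2 fell (14.01 to 14.11 against 13.61 to 14.08), and the 10 stromal markers stood at 13.91 to 13.95 against 13.93 to 14.03, with 1 higher and 1 lower. Krt5 of 7 squamous markers rose by 2.78, a call kept in 5 of 13 alternatives. Among the other marker calls, Pecam1 was kept in 5 of 14 alternatives, and Krt8, Kdr and Cnn1 in 7 of 14. Elf5 and Tfap2c of 4 embryo and trophoblast markers rose by 3.41 and 1.29, and the other 2, Nanog and Eomes, were not called. Pou5f1, Dppa3 and Cdx2 were not bright enough to be tested. Of 8 leukocyte markers Csf1r rose (0.41) and none fell (1 at an unadjusted p under 0.05), and of 4 erythrocyte markers none passed (1 at an unadjusted p under 0.05).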

How the data were processed

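RNA of 6 whole uteri, 3 Sox17f/f and 3 Sox17ed/ed, was measured on Agilent 1-colour arrays, grouped by the genotype in the labels. The authors deposited the spot intensity of each array as scanner output of Agilent Feature Extraction (11.0.1.1 in the file header, 9.1 in the submitters' processing notes), whose processed signal is background-subtracted and not normalized between arrays. A deposited table of processed intensity values was within 0.191% of the mean of that signal over the spots of a probe. Subtraction makes dim values uncertain on the log2 scale.

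After removal of control spots and of 169 to 302 outlier spots on an array, the log2 signals were quantile normalized and averaged over the spots of a probe. A probe entered the test if at least 3 of the 6 arrays measured it well above background, and the brightest probe of a gene was used. Of 55681 probes, 26576 were matched by accession to 1 gene (20141 genes, RefSeq, GRCm38.p6). The array design is annotated on another build, so its coordinates were not used. Genotypes were compared with limma 3.58.1 (lmFit and eBayes, no covariate; R 4.3.3), and p-values were adjusted by the Benjamini-Hochberg method over the 14843 genes tested. Errors after ± are standard errors of the log2 fold change, and intervals are 95% intervals. The number of arrays, 3 in each group, limits the precision. Tallies and plots were made in Python 3.11.15 (pandas 2.3.3; numpy 2.4.6; matplotlib 3.10.9). Quantile normalization and the limma fit were also run on values simulated from the means and spreads of these data (seed 1). Of 83 genes changed by 0.5 on the log2 scale, 26 (31.3%) were recovered at an adjusted p under 0.05. Of 58 changed by 1, 47 were, and of 59 changed by 2, 49 (83.1%). Among the unchanged genes 7 were called. Outlier removal, averaging over spots, the filter on dim probes and the choice of probe were not simulated. Each gene was drawn separately, so genes that vary together across arrays, as the members do, were not simulated either.

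All 48 members are named, and of each further list the 2 highest and 2 lowest genes past the test, with Myc, Mycn and Mki67. Genes named outside this rule (Ddx51, the other head-to-head partners, Utp4, and the markers) were chosen after their values were seen. Promoters were to be shown for members past the test with a CACGTG, and there were none, so those shown were also chosen afterwards. The members, the lists and the tests were chosen with earlier results of these data known.

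Alternatives were a shift by the 75th percentile, normexp correction of the background (offset 50, on the median spot and background signals, as these files hold no mean signal), no filter on dim probes, an average over the probes of a gene, a stricter filter (all 6 arrays), an eBayes intensity trend, the deposited processed values, a block on the replicate number, and each array left out. The array order under other scalings was added after the data were seen.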

Additional observations from a re-analysis of the deposited data

How the results depend on the processing

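Noc4l kept its direction and an adjusted p under 0.05 in all 14 alternatives (log2 fold change -0.56 to -0.44), and Sox17 remained lower in all. No alternative called a member higher. The number of members lower was 1, and 3 with a shift by the 75th percentile (Nip7, Noc4l, Nolc1), 4 with normexp (Ftsj3, Nip7, Noc4l, Nolc1), 2 with the mean of a gene's probes (Noc4l, Wdr43), 5 with an intensity trend (Ltv1, Nip7, Noc4l, Nolc1, Wdr43) and 1 in the other settings that keep 6 arrays. Leaving out an array gave 1 to 4, and 0 to 2 at the thresholds of the methods, where it was 0 without Sox17f/f replicate 2 or Sox17ed/ed replicate 2 and 2 without Sox17f/f replicate 3 or Sox17ed/ed replicate 3. The members' median was -0.09 with normexp (33 of 47 below 0) and between -0.16 and -0.14 in the other settings with 6 arrays, and -0.23 to -0.07 leaving out an array. The replicate numbers do not pair the samples (correlations of same-numbered deviations 0.06, -0.11 and -0.00). With the replicate block, 1 member, Noc4l, was called lower, at a median of -0.14, and 1855 genes in all in place of 2798; leaving out an array gave 1650 to 2656 genes.

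Members without a call changed sign, as follows (log2 fold changes), and the cause was not tested. In the main fit these members ran from -0.14 for Ddx18, the same as the members' median, to 0.04 for Nop10. With the shift, Nop56 was at -0.0687, Nop10 at -0.0237 and Mybbp1a at -0.0707; with the mean of probes Nop56 was at -0.0759; with the deposited values Nop56 and Mybbp1a were at -0.0145 and -0.0147. With normexp, Ncl was at 0.107, Polr1a at 0.119, Polr1b at 0.00808, Utp15 at 0.0689, Pes1 at 0.0105 and Ddx18 at 0.0078. Leaving out an array, Nop56 ran from -0.0899 to 0.0849, Nhp2 from -0.113 to 0.0437, Gar1 from -0.0780 to 0.0271, Ncl from -0.0661 to 0.0225, Polr1a from -0.113 to 0.0181, Polr1b from -0.231 to 0.0636, Ubtf from -0.0659 to 0.0196, Mybbp1a from -0.0505 to 0.0720, Utp15 from -0.140 to 0.0458, Nop14 from -0.156 to 0.0307, Pes1 from -0.318 to 0.127 and Wdr12 from -0.0903 to 0.00579.

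Counts of called genes in the further lists moved more. The further ribosome biogenesis factors had 11, with 17 under the trend, 3 under the block and as few as 3 (without Sox17f/f replicate 1) leaving out an array. The cell cycle list had 6, with 11 under normexp and the trend, 1 without the filter, 0 under the block, and 1 to 11 leaving out an array. RNA polymerase III had 4, with 2 after the shift, 1 without the filter, 0 under the block and as few as 0 (without Sox17f/f replicate 1). The exosome's 1 was lost in 11 of 14 alternatives (the shift, normexp, no filter, the deposited values, the block and each array left out), the RNA polymerase I list's 1 under the block and in 5 of 6 fits leaving out an array (it held without Sox17ed/ed replicate 3), and the translation list's 1 under the block and without Sox17f/f replicate 1 or Sox17ed/ed replicate 3. Cytosolic ribosomal proteins had 0 or 1 throughout and mitochondrial ones 0 to 3. The Myc network had 1, with 5 under the trend and 0 under the block, and nucleotide synthesis 2, with 1 under most settings.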
